A study of Mus musculus with 2 samples.

Results

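SR proteins are splicing factors with RNA-binding domains and a tail rich in arginine and serine. They bind exons, help the spliceosome to choose splice sites and act in mRNA export. Clk kinases phosphorylate that tail in the nucleus and release SR proteins from nuclear speckles, and transcripts of both families are known to be held back with retained introns or degraded through poison exons. The genes described here are 8 Srsf genes, Srsf1, Srsf2, Srsf3, Srsf4, Srsf5, Srsf6, Srsf7 and Srsf11, and the kinase genes Clk1 and Clk4. They were taken by symbol, 10 of the 25906 genes listed, and were chosen by their level and detection per cell class and library in these data. Levels are in CPM, the UMIs (molecules) of a gene per 1e6 UMIs of a class in a library. Those values are therefore a description with no test.

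The cells came from whole brains of adult mice and were sorted as astrocytes and endothelial cells. There was 1 library from IL34LacZ/LacZ mice, treated by the study as knockout, and 1 library from IL34LacZ/+ mice, treated as wild type, so both carried a LacZ allele of Il34, the gene of a Csf1r ligand. The sources used here do not say how many mice were pooled, their exact age, which markers served the sort or where LacZ was inserted. Molecules were counted at the 3′ end of transcripts in droplets. With 1 library per genotype, differences could not be checked against replicates. Every interval is at the 95% level and covers counting error only, since cells and UMIs of a library are not replicates.

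After filtering, the library labelled IL34LacZ/LacZ had 1167 cells (median 10366 UMIs) and the library labelled IL34LacZ/+ had 1646 cells (median 8026 UMIs). These cells shared 2 barcodes. Cells were placed in classes, called gated here, by the class that led their marker UMIs. With the label IL34LacZ/LacZ there were 303 endothelial-gated, 123 astrocyte-gated, 260 choroid plexus epithelium-gated, 234 oligodendrocyte-gated and 48 pericyte-gated cells. With the label IL34LacZ/+ there were 517, 255, 351, 249 and 34. Much of both libraries thus lay outside the sorted types. All markers of each of these 5 classes were detected in it, and the choroid plexus list summed to 6042 CPM (IL34LacZ/LacZ) and 5755 CPM (IL34LacZ/+) in its own class and to at most 108 CPM in the other 4. Il34 was at 513 CPM (IL34LacZ/LacZ, 132 UMIs) and 375 CPM (IL34LacZ/+, 64 UMIs) in pericyte-gated cells, where the highest single cell held 27 of 132 UMIs (IL34LacZ/LacZ) and 7 of 64 UMIs (IL34LacZ/+), and at 76.2 CPM (IL34LacZ/LacZ, 116 UMIs) and 36.4 CPM (IL34LacZ/+, 64 UMIs) in cells of no class. In fibroblast-gated cells it was at 17.8 CPM (IL34LacZ/LacZ, 6 UMIs) and 119 CPM (IL34LacZ/+, 26 UMIs), with 3 of 6 UMIs (IL34LacZ/LacZ) and 13 of 26 UMIs (IL34LacZ/+) in 1 cell. The pericyte values run against the labels and the fibroblast values with them, and tags outside a removed part of the gene check nothing. Every direction below therefore rests on the label, which stands in parentheses beside each value.

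Promoters of 3 members are shown because these genes carried the clearest patterns: Clk4 was low in choroid plexus epithelium, Srsf3 was not, and Srsf5 differed there between the libraries. Each covers 250 bases before to 50 bases after a transcription start of RefSeq, build GRCm38.p6, whose table matched 9 of the 10 members and not Clk1. Capitals mark matches to short motifs. In Clk4 (chr11:51262864-51263163, plus strand) they mark a cAMP response element, TGACGTCA. In Srsf3 (chr17:29032410-29032709, plus strand) they mark a CCAAT box read on the other strand and a TATA box, TATAAA. In Srsf5 (chr12:80945249-80945548, plus strand) they mark an ETS site, CCGGAAG, once on each strand.
Clk4: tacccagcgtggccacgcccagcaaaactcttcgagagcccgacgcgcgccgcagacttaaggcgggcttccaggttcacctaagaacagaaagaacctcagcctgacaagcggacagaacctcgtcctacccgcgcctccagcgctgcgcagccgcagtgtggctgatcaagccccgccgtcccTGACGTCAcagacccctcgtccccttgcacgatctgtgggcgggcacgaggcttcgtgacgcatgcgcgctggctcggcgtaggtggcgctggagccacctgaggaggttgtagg
Srsf3: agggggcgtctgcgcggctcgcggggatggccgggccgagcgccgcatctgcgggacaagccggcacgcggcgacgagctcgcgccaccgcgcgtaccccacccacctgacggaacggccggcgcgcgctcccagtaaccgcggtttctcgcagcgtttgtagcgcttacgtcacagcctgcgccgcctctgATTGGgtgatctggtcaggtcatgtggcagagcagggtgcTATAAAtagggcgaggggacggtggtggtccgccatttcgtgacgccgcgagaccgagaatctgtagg
Srsf5: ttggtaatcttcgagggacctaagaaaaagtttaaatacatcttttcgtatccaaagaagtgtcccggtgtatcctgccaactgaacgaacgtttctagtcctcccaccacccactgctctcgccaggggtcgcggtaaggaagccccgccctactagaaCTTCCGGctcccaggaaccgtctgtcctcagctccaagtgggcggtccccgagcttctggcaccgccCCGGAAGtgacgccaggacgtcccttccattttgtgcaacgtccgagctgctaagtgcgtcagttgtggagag

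Counted on both strands, the cAMP response element was in 1 matched member and in 1.79% of all 32851 mouse promoters in the table. The ETS site was in 4 members and 8.86% of all promoters, the CCAAT box in 3 members and 37.4%, and the TATA box in 2 members and 13.6%. A member was counted if any of its promoters matched, with 12 promoters for 9 members, while the shares are per promoter. The heat shock element core, GAANNTTC, and the E-box, CACGTG, were in 0 members, and in 7.86% and 7.15% of all promoters. None of these letters overlap within the promoters shown, and a match is a description only.

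The kinase genes stood out by cell class. Clk1, a dual-specificity kinase that phosphorylates SR proteins (ENSMUSG00000026034, chr1:58410189-58424066, minus strand), has 13 annotated transcripts, of which 7 retain an intron. In choroid plexus epithelium-gated cells it was at 11.7 CPM (IL34LacZ/LacZ, 8.52 to 15.6) and 9.11 CPM (IL34LacZ/+, 6.59 to 12.3), with the counting interval after the label. In oligodendrocyte-gated cells it was at 158 CPM (IL34LacZ/LacZ, 146 to 170.1) and 187 CPM (IL34LacZ/+, 172 to 201). These are the lowest and the next lowest of the 5 classes in both libraries. Each lay apart from the class above it, which here means that both of its library values were beyond both values of its neighbour, whether or not the counting intervals overlapped. Endothelial-gated cells had 248 CPM (IL34LacZ/LacZ, 225 to 273) and 300.3 CPM (IL34LacZ/+, 279.9 to 322). Astrocyte-gated cells had 243 CPM (IL34LacZ/LacZ, 216 to 272) and 292 CPM (IL34LacZ/+, 269.9 to 315). Pericyte-gated cells had 296 CPM (IL34LacZ/LacZ, 233 to 369.9) and 269 CPM (IL34LacZ/+, 197 to 359), and these last 3 classes overlapped between libraries.

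Clk4, a close relative of Clk1 (ENSMUSG00000020385, chr11:51261730-51281766, plus strand), showed the same order at the low end. It was at 6.75 CPM (IL34LacZ/LacZ, 4.41 to 9.89) and 6.35 CPM (IL34LacZ/+, 4.29 to 9.07) in choroid plexus epithelium-gated cells. Oligodendrocyte-gated cells had 71.9 CPM (IL34LacZ/LacZ) and 95.8 CPM (IL34LacZ/+), and endothelial-gated cells had 109 CPM (IL34LacZ/LacZ) and 109 CPM (IL34LacZ/+). Pericyte-gated cells had 144 CPM (IL34LacZ/LacZ) and 117 CPM (IL34LacZ/+), and astrocyte-gated cells had 97.4 CPM (IL34LacZ/LacZ) and 146 CPM (IL34LacZ/+). The endothelial-gated class lay apart from the oligodendrocyte-gated class below it. Astrocyte-gated cells lay apart from neither endothelial- nor pericyte-gated cells. Pericyte-gated cells, with 37 UMIs (IL34LacZ/LacZ) and 20 UMIs (IL34LacZ/+), lay apart above endothelial-gated cells. The gene BC049762 overlaps Clk4 on the other strand, and counting by strand was not stated. The choroid plexus values of Clk1 rest on 45 UMIs (IL34LacZ/LacZ) and 43 UMIs (IL34LacZ/+), and those of Clk4 on 26 UMIs (IL34LacZ/LacZ) and 30 UMIs (IL34LacZ/+). The highest single cell held 9 of 45 UMIs (IL34LacZ/LacZ) and 5 of 43 UMIs (IL34LacZ/+) of Clk1 and 3 of 26 UMIs (IL34LacZ/LacZ) and 2 of 30 UMIs (IL34LacZ/+) of Clk4. Without that cell Clk1 was at 9.42 CPM (IL34LacZ/LacZ) and 8.11 CPM (IL34LacZ/+) and Clk4 at 6.03 CPM (IL34LacZ/LacZ) and 5.97 CPM (IL34LacZ/+).

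Clk1 and Clk4 summed were lower in choroid plexus epithelium-gated than in endothelial-gated cells by a log2 difference of −4.28 (IL34LacZ/LacZ, −4.65 to −3.92) and −4.73 (IL34LacZ/+, −5.09 to −4.39). Stated as a fold, endothelial-gated cells were higher by 19.4-fold (IL34LacZ/LacZ, 15.1 to 25.1) and 26.5-fold (IL34LacZ/+, 20.9 to 34.1). Oligodendrocyte-gated cells, the nearest class, were higher by 12.5-fold (IL34LacZ/LacZ, 9.78 to 16.1) and 18.3-fold (IL34LacZ/+, 14.4 to 23.5).

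Detection per cell gave the same contrast at equal depth. The share of choroid plexus epithelium-gated cells with a Clk1 UMI was 9.62% (IL34LacZ/LacZ, 6.32 to 13.9) and 10.3% (IL34LacZ/+, 7.29 to 13.9), at a median depth of 13837 UMIs (IL34LacZ/LacZ) and 12356 UMIs (IL34LacZ/+). In oligodendrocyte-gated cells the share was 83.8% (IL34LacZ/LacZ) and 85.5% (IL34LacZ/+), at a median of 16445 UMIs (IL34LacZ/LacZ) and 13730 UMIs (IL34LacZ/+). Each cell was then thinned to 2000 UMIs, which left out 5 choroid plexus cells labelled IL34LacZ/LacZ and 3 labelled IL34LacZ/+, and the share in choroid plexus epithelium was 1.96% (IL34LacZ/LacZ, 0.640 to 4.52) and 2.01% (IL34LacZ/+, 0.812 to 4.10). The thinned share in oligodendrocyte-gated cells was 19.1% (IL34LacZ/LacZ) and 33.9% (IL34LacZ/+), and in endothelial-gated cells 38.2% (IL34LacZ/LacZ) and 44.6% (IL34LacZ/+). For Clk4 the thinned share was 1.57% (IL34LacZ/LacZ) and 1.15% (IL34LacZ/+) in choroid plexus epithelium and 12.6% (IL34LacZ/LacZ) and 18.2% (IL34LacZ/+) in oligodendrocyte-gated cells.

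Barcodes dominated by haemoglobin were read for comparison. There were 32 labelled IL34LacZ/LacZ, at a median of 15280.5 UMIs, and 12 labelled IL34LacZ/+, at a median of 23880.5 UMIs. Haemoglobin genes took 69.5% (IL34LacZ/LacZ) and 76.0% (IL34LacZ/+) of their UMIs, which lowers the CPM and thinned share of every other gene in them. These erythrocyte-gated barcodes had Clk1 at 76.4 CPM (IL34LacZ/LacZ, 40 UMIs) and 30.7 CPM (IL34LacZ/+, 9 UMIs) and Clk4 at 26.7 CPM (IL34LacZ/LacZ, 14 UMIs) and 3.41 CPM (IL34LacZ/+, 1 UMI). The highest single barcode held 16 of 40 UMIs (IL34LacZ/LacZ) and 4 of 9 UMIs (IL34LacZ/+) of Clk1, and without it Clk1 was at 47.0 CPM (IL34LacZ/LacZ, 30.1 to 70.0) and 20.1 CPM (IL34LacZ/+, 6.54 to 47.0). Of these barcodes, 12 of 32 (IL34LacZ/LacZ) and 3 of 12 (IL34LacZ/+) had a Clk1 UMI, and 4 of 32 (IL34LacZ/LacZ) and 0 of 12 (IL34LacZ/+) had one after thinning, where 0 of 12 allows a share of up to 26.5% by the exact interval. A choroid plexus epithelium-gated cell held a mean of 0.173 UMIs (IL34LacZ/LacZ) and 0.123 UMIs (IL34LacZ/+) of Clk1, and an erythrocyte-gated barcode a mean of 1.25 UMIs (IL34LacZ/LacZ) and 0.750 UMIs (IL34LacZ/+). Whether these barcodes held free RNA alone was not tested, and the part of free RNA in the choroid plexus values was not measured.

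**Figure D1:**
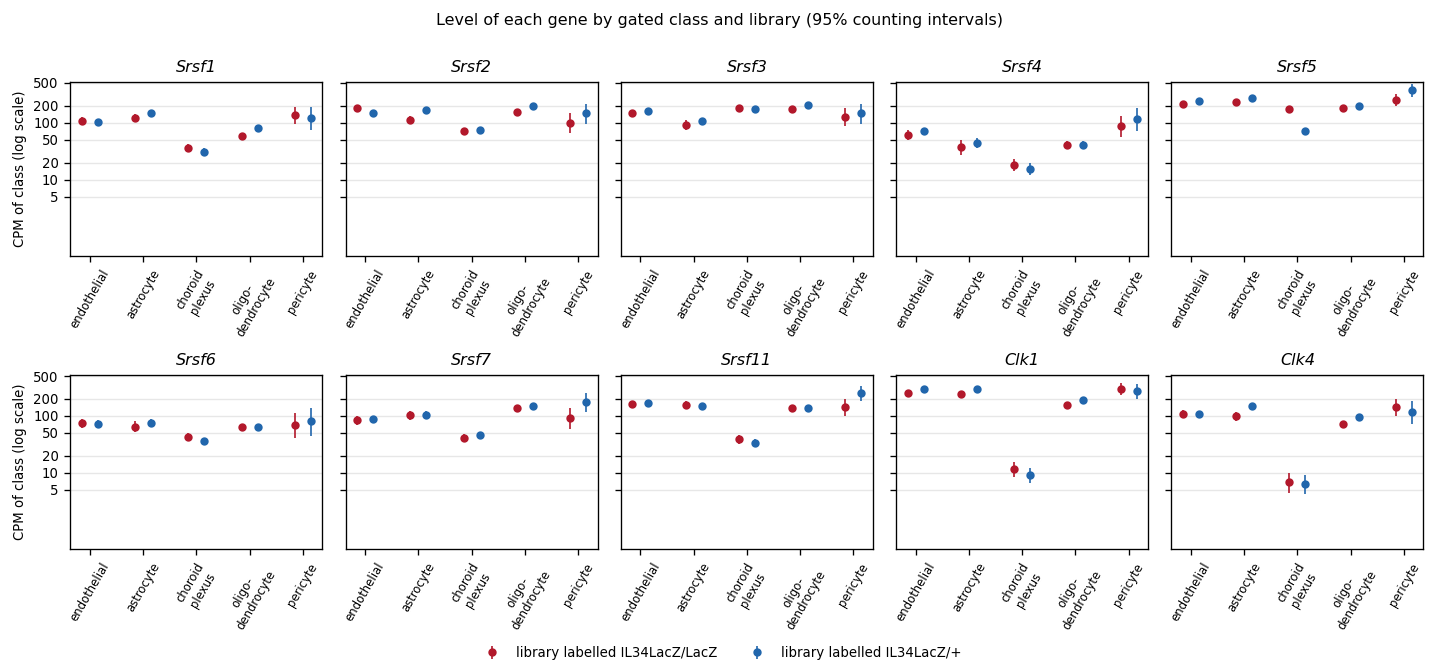
Level of each of the 10 genes in CPM (log axis) in the 5 gated classes, with the library labelled IL34LacZ/LacZ left of the library labelled IL34LacZ/+ and bars for 95% counting intervals. In choroid plexus epithelium Clk1 lies at 11.7 CPM (IL34LacZ/LacZ) and 9.11 CPM (IL34LacZ/+) while Srsf3 lies at 182 CPM (IL34LacZ/LacZ) and 176 CPM (IL34LacZ/+).

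The classes also differed in RNA composition. Transthyretin (Ttr), a main secreted protein of choroid plexus epithelium, took a share of this class's UMIs of 24.2% (IL34LacZ/LacZ) and 29.0% (IL34LacZ/+), which lowers the CPM of every other gene. Without Ttr in the total, the summed kinase difference to endothelial-gated cells was −3.88 (IL34LacZ/LacZ) and −4.24 (IL34LacZ/+). Ribosomal protein genes took 6.83% (IL34LacZ/LacZ) and 6.78% (IL34LacZ/+) in choroid plexus epithelium-gated and 0.826% (IL34LacZ/LacZ) and 1.20% (IL34LacZ/+) in endothelial-gated cells. Fibroblast-gated cells, of which 21 were labelled IL34LacZ/LacZ and 14 IL34LacZ/+, were like choroid plexus epithelium in this share, with 6.80% (IL34LacZ/LacZ) and 5.73% (IL34LacZ/+), and had Clk1 at 329.7 CPM (IL34LacZ/LacZ) and 312 CPM (IL34LacZ/+). Classes taken from clusters put 112 cells labelled IL34LacZ/LacZ and 117 labelled IL34LacZ/+ with the fibroblasts, where Clk1 was at 298 CPM (IL34LacZ/LacZ, 272 to 326) and 358 CPM (IL34LacZ/+, 330.2 to 387) beside a ribosomal protein share of 6.69% (IL34LacZ/LacZ) and 7.12% (IL34LacZ/+). Within choroid plexus epithelium, cells below the class median of ribosomal protein share had the kinases summed at 21.4 CPM (IL34LacZ/LacZ) and 15.7 CPM (IL34LacZ/+). Those above it had 15.4 CPM (IL34LacZ/LacZ) and 15.2 CPM (IL34LacZ/+).

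Other kinases of SR proteins were read beside them. Clk2, of the same family, was at 2.86 CPM (IL34LacZ/LacZ) and 1.91 CPM (IL34LacZ/+) in choroid plexus epithelium-gated cells, from 11 UMIs (IL34LacZ/LacZ) and 9 UMIs (IL34LacZ/+), and at 64.0 CPM (IL34LacZ/LacZ) and 66.9 CPM (IL34LacZ/+) in endothelial-gated cells. Clk3 was at 10.6 CPM (IL34LacZ/LacZ) and 10.4 CPM (IL34LacZ/+) in choroid plexus epithelium-gated and 19.0 CPM (IL34LacZ/LacZ) and 24.3 CPM (IL34LacZ/+) in endothelial-gated cells. Srpk1, a largely cytoplasmic kinase of SR proteins, was at 52.2 CPM (IL34LacZ/LacZ) and 44.3 CPM (IL34LacZ/+) in choroid plexus epithelium-gated and 74.7 CPM (IL34LacZ/LacZ) and 59.4 CPM (IL34LacZ/+) in endothelial-gated cells. Among 6570 genes 51.8% were past 1.5-fold lower in choroid plexus epithelium-gated than in endothelial-gated cells in both libraries, so a lower level was common. Clk3 was named after its values were seen.

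Among SR protein genes, Srsf3 was not lower in choroid plexus epithelium-gated than in endothelial-gated cells. Srsf3, a short SR protein that also serves as an export adaptor (ENSMUSG00000071172, chr17:29032628-29043373, plus strand), was at 182 CPM (IL34LacZ/LacZ, 168 to 195) and 176 CPM (IL34LacZ/+, 164 to 189) in choroid plexus epithelium-gated cells. Endothelial-gated cells had 149.9 CPM (IL34LacZ/LacZ) and 161 CPM (IL34LacZ/+), and astrocyte-gated cells, the lowest class, had 91.7 CPM (IL34LacZ/LacZ) and 109 CPM (IL34LacZ/+). Oligodendrocyte-gated cells had 177 CPM (IL34LacZ/LacZ) and 209 CPM (IL34LacZ/+) and were not apart from choroid plexus epithelium. The log2 difference of choroid plexus epithelium to endothelial-gated cells was 0.28 (IL34LacZ/LacZ, 0.07 to 0.49) and 0.13 (IL34LacZ/+, −0.04 to 0.30), to astrocyte-gated cells 0.99 (IL34LacZ/LacZ, 0.70 to 1.29) and 0.69 (IL34LacZ/+, 0.48 to 0.90) and to oligodendrocyte-gated cells 0.04 (IL34LacZ/LacZ, −0.11 to 0.19) and −0.25 (IL34LacZ/+, −0.39 to −0.10). The interval to endothelial-gated cells included 0 in the library labelled IL34LacZ/+, and the difference to oligodendrocyte-gated cells lay below 0 there. After thinning, the share of choroid plexus epithelium-gated cells with a UMI was 33.3% (IL34LacZ/LacZ) and 30.2% (IL34LacZ/+), and that of erythrocyte-gated barcodes was 2 of 32 (IL34LacZ/LacZ) and 0 of 12 (IL34LacZ/+). Those barcodes were thinned with their haemoglobin UMIs included, which lowers their share.

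Srsf1, Srsf2 and Srsf7 were lowest in choroid plexus epithelium in both libraries. Srsf1, the founding SR protein (ENSMUSG00000018379, chr11:88047373-88053755, plus strand), was at 36.4 CPM (IL34LacZ/LacZ) and 30.7 CPM (IL34LacZ/+) there. Its mean over the libraries was highest in astrocyte-gated cells, at 122 CPM (IL34LacZ/LacZ) and 149.9 CPM (IL34LacZ/+), which were not apart from pericyte-gated cells. Oligodendrocyte-gated cells lay between, at 57.8 CPM (IL34LacZ/LacZ) and 81.2 CPM (IL34LacZ/+).

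Srsf2, which binds exonic enhancers (ENSMUSG00000034120, chr11:116849901-116853094, minus strand), was at 70.4 CPM (IL34LacZ/LacZ) and 75.4 CPM (IL34LacZ/+) in choroid plexus epithelium-gated cells. It was at 157 CPM (IL34LacZ/LacZ) and 200.3 CPM (IL34LacZ/+) in oligodendrocyte-gated cells and at 182 CPM (IL34LacZ/LacZ) and 149 CPM (IL34LacZ/+) in endothelial-gated cells. Both classes lay apart above pericyte-gated cells, at 101 CPM (IL34LacZ/LacZ, 26 UMIs) and 146 CPM (IL34LacZ/+, 25 UMIs). The pericyte interval labelled IL34LacZ/+, 94.7 to 216 CPM, includes the oligodendrocyte- and endothelial-gated levels of that library. Astrocyte-gated cells were not apart from these classes. Mettl23 and Mfsd11 overlap Srsf2 on the other strand. Srsf7, an export adaptor like Srsf3 (ENSMUSG00000024097, chr17:80200080-80207307, minus strand), was at 41.0 CPM (IL34LacZ/LacZ) and 46.0 CPM (IL34LacZ/+) in choroid plexus epithelium-gated cells and at 139.6 CPM (IL34LacZ/LacZ) and 149 CPM (IL34LacZ/+) in oligodendrocyte-gated cells. Erythrocyte-gated barcodes had Srsf7 at 26.7 CPM (IL34LacZ/LacZ, 14.6 to 44.9) and 23.9 CPM (IL34LacZ/+, 9.60 to 49.2), intervals that include its choroid plexus levels.

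Srsf4, Srsf6 and Srsf11 were also lowest in choroid plexus epithelium. Srsf4, a long SR protein (ENSMUSG00000028911, chr4:131873617-131901706, plus strand), was at 18.2 CPM (IL34LacZ/LacZ) and 15.7 CPM (IL34LacZ/+) there and highest in pericyte-gated cells, at 89.4 CPM (IL34LacZ/LacZ) and 117 CPM (IL34LacZ/+). Endothelial-gated cells, the next class, had 61.0 CPM (IL34LacZ/LacZ, 49.8 to 74.0) and 71.0 CPM (IL34LacZ/+, 61.2 to 81.8). The pericyte values, from 23 UMIs (IL34LacZ/LacZ) and 20 UMIs (IL34LacZ/+), had intervals of 56.7 to 134 CPM (IL34LacZ/LacZ) and 71.5 to 181 CPM (IL34LacZ/+), which overlap those. Erythrocyte-gated barcodes had Srsf4 at 13.4 CPM (IL34LacZ/LacZ, 5.38 to 27.6) and 6.83 CPM (IL34LacZ/+, 0.827 to 24.7), intervals that include its choroid plexus levels. Without the highest single barcode Srsf4 was at 9.99 CPM (IL34LacZ/LacZ, 3.24 to 23.3) and 0 CPM (IL34LacZ/+, 0 to 14.2). The interval labelled IL34LacZ/+ then lies below its choroid plexus level, with haemoglobin UMIs in the total. Srsf6, a relative of Srsf4 (ENSMUSG00000016921, chr2:162931528-162937121, plus strand), was at 42.8 CPM (IL34LacZ/LacZ) and 35.6 CPM (IL34LacZ/+) in choroid plexus epithelium. Oligodendrocyte-gated cells had 64.9 CPM (IL34LacZ/LacZ) and 62.5 CPM (IL34LacZ/+). They lay apart below endothelial-gated cells, at 74.7 CPM (IL34LacZ/LacZ) and 73.2 CPM (IL34LacZ/+). They also lay apart below pericyte-gated cells, at 70.0 CPM (IL34LacZ/LacZ, 18 UMIs) and 81.9 CPM (IL34LacZ/+, 14 UMIs). Astrocyte-gated cells were not apart from these classes. Pericytes taken from clusters had intervals of 38.3 to 102 CPM (IL34LacZ/LacZ) and 49.4 to 132 CPM (IL34LacZ/+), which include the oligodendrocyte-gated levels. Srsf11, an SR-related protein (ENSMUSG00000055436, chr3:158010473-158036639, minus strand), was at 38.4 CPM (IL34LacZ/LacZ) and 33.9 CPM (IL34LacZ/+) in choroid plexus epithelium. Its log2 difference to endothelial-gated cells was −2.09 (IL34LacZ/LacZ, −2.39 to −1.80) and −2.29 (IL34LacZ/+, −2.56 to −2.03). Erythrocyte-gated barcodes had Srsf11 at 36.3 CPM (IL34LacZ/LacZ, 21.9 to 56.7) and 34.1 CPM (IL34LacZ/+, 16.4 to 62.8), intervals that include its choroid plexus levels. Without the highest single barcode Srsf11 was at 30.2 CPM (IL34LacZ/LacZ, 16.9 to 49.8) and 15.7 CPM (IL34LacZ/+, 4.28 to 40.2). Those intervals still include its choroid plexus levels.

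Summed over the 8 Srsf genes, choroid plexus epithelium-gated cells had 603 CPM (IL34LacZ/LacZ) and 484 CPM (IL34LacZ/+) and erythrocyte-gated barcodes had 254 CPM (IL34LacZ/LacZ) and 167 CPM (IL34LacZ/+). The erythrocyte-gated levels are lowered by a haemoglobin share of 69.5% (IL34LacZ/LacZ) and 76.0% (IL34LacZ/+), and were not read without it. Endothelial-gated cells had 1039 CPM (IL34LacZ/LacZ) and 1056 CPM (IL34LacZ/+), and the other 3 classes were not ordered against them. The log2 difference of choroid plexus epithelium to endothelial-gated cells was −0.79 (IL34LacZ/LacZ, −0.88 to −0.70) and −1.13 (IL34LacZ/+, −1.21 to −1.05). In such sums fewer cells in a state and less RNA per cell cannot be told apart.

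Many genes were lower in choroid plexus epithelium, so the members were read against all genes. Of the 10 members 8 were past 1.5-fold lower than in endothelial-gated cells in both libraries and 0 higher, where 51.8% of 6570 genes were lower and 31.6% higher. The exceptions were Srsf3 and Srsf5. Srsf5 was still lowest in choroid plexus epithelium in both libraries. Endothelial-gated cells were higher in Srsf5 by 1.25-fold (IL34LacZ/LacZ) and 3.49-fold (IL34LacZ/+). Its log2 difference to oligodendrocyte-gated cells was −0.07 (IL34LacZ/LacZ, −0.22 to 0.08), an interval that included 0, and −1.49 (IL34LacZ/+, −1.68 to −1.29). Against astrocyte-gated cells 8 members were lower and 1, Srsf3, higher, where 46.4% of genes were lower and 30.7% higher. Against oligodendrocyte-gated cells 8 were lower and 0 higher, where 53% were lower and 21.4% higher. Against pericyte-gated cells 4 of 7 measured were lower and 0 higher, where 28% were lower and 44.4% higher. The members' median log2 difference to endothelial-gated cells was −1.47 (IL34LacZ/LacZ) and −1.77 (IL34LacZ/+), beside −0.91 (IL34LacZ/LacZ) and −1.0 (IL34LacZ/+) for 6492 genes with UMIs in endothelial-gated cells of both libraries. These levels chose the members, so nothing is read from the shares.

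A narrower background was 1394 genes with at least 50 CPM in each of the other 4 classes in both libraries, each set against the lowest of those classes. Their median log2 value was −1.42 (IL34LacZ/LacZ) and −1.61 (IL34LacZ/+). Clk1 was at −3.75 (IL34LacZ/LacZ) and −4.36 (IL34LacZ/+), and the share of these genes below it was 6.38% (IL34LacZ/LacZ) and 5.88% (IL34LacZ/+). Clk4 was at −3.41 (IL34LacZ/LacZ) and −3.92 (IL34LacZ/+), and the share below it was 9.11% (IL34LacZ/LacZ) and 8.39% (IL34LacZ/+). The lowest of the 1394 genes were Agmo, Ptn, Klf7, Wipf1 and Auts2. The share below Srsf11 was 40.5% (IL34LacZ/LacZ) and 40.6% (IL34LacZ/+), and that below Srsf3 was 84.6% (IL34LacZ/LacZ) and 82.9% (IL34LacZ/+). The other 5 Srsf genes in the set lay between 53.4% and 74.3%, and Srsf4 was not in it. These levels chose the members, and the set asks for no minimum in choroid plexus epithelium. The positions are therefore a description, and nothing is read from them.

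**Figure D2:**
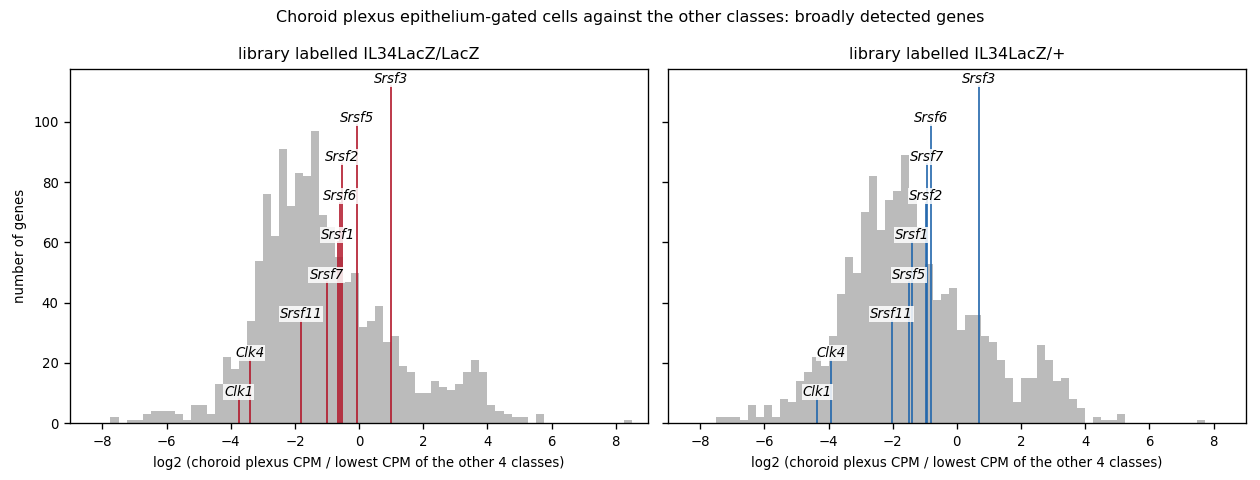
Number of genes (vertical axis), among 1394 with at least 50 CPM in the 4 other classes, by the log2 ratio of choroid plexus epithelium to the lowest other class, with the library labelled IL34LacZ/LacZ in the left and the library labelled IL34LacZ/+ in the right panel; lines mark 9 members and their heights only separate the names. Clk1 lies at −3.75 (IL34LacZ/LacZ) and −4.36 (IL34LacZ/+), near the low end, and Srsf3 lies at 0.99 (IL34LacZ/LacZ) and 0.69 (IL34LacZ/+), on the high side.

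Srsf5 differed between the libraries within choroid plexus epithelium. This SR protein, known from rat as a gene of the growth response (ENSMUSG00000021134, chr12:80945504-80950507, plus strand), has 12 annotated transcripts, of which 3 retain an intron. It was at 174 CPM (IL34LacZ/LacZ, 161 to 188) and 70.5 CPM (IL34LacZ/+, 63.1 to 78.5), from 671 UMIs (IL34LacZ/LacZ) and 333 UMIs (IL34LacZ/+). The intervals did not overlap, and the log2 ratio, IL34LacZ/LacZ over IL34LacZ/+, was 1.31 (1.11 to 1.5), which is 2.47-fold (2.16 to 2.83). Of the measured genes, those with at least 100 UMIs in the class over both libraries, 99.5% had a lower ratio. Srsf5 was the 1 of 8 measured members past 1.5-fold, where 5.14% of 5970 genes were higher, 0.938% lower and 6.08% either. The other 7 lay between −0.16 for Srsf7 and 0.27 for Srsf6. Clk1 and Clk4 had too few UMIs to be measured.

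The Srsf5 difference was spread over the cells. The share of cells with a UMI was 75.8% (IL34LacZ/LacZ, 70.1 to 80.8) and 49.6% (IL34LacZ/+, 44.2 to 54.9). After thinning to 2000 UMIs the shares were 25.9% (IL34LacZ/LacZ, 20.6 to 31.7) and 12.6% (IL34LacZ/+, 9.34 to 16.6). Erythrocyte-gated barcodes had Srsf5 at 63.1 CPM (IL34LacZ/LacZ, 43.4 to 88.5) and 44.4 CPM (IL34LacZ/+, 23.6 to 75.9). The highest single cell's share of the class's Srsf5 UMIs was 2.98% (IL34LacZ/LacZ) and 2.40% (IL34LacZ/+). The level of the median cell was 141 CPM (IL34LacZ/LacZ) and 0 CPM (IL34LacZ/+).

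The difference was also read within strata of depth and of mitochondrial share. Among choroid plexus cells below the class median of total UMIs, Srsf5 was at 137 CPM (IL34LacZ/LacZ) and 67.9 CPM (IL34LacZ/+). Above it, Srsf5 was at 189 CPM (IL34LacZ/LacZ) and 71.6 CPM (IL34LacZ/+). By mitochondrial share, the lower group had 178 CPM (IL34LacZ/LacZ) and 69.2 CPM (IL34LacZ/+). The upper group had 170.2 CPM (IL34LacZ/LacZ) and 72.1 CPM (IL34LacZ/+), so the difference was present in each group.

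**Figure D3:**
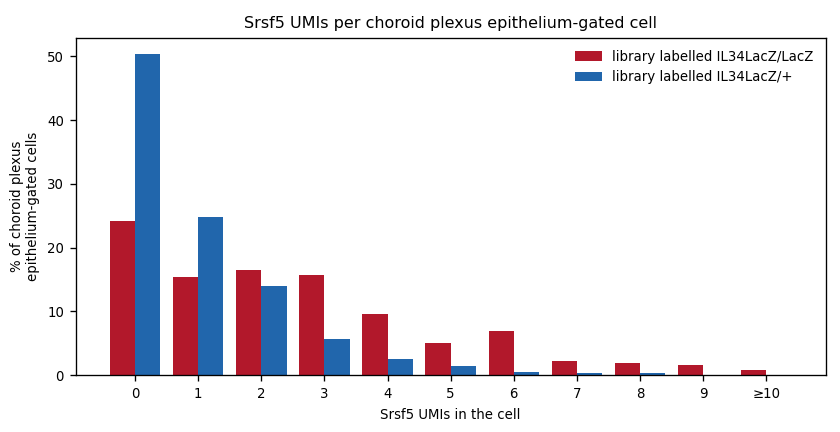
Share of choroid plexus epithelium-gated cells (%, vertical axis) by the number of Srsf5 UMIs in the cell (horizontal axis), with the library labelled IL34LacZ/LacZ (260 cells) left of the library labelled IL34LacZ/+ (351 cells). Cells with 0 UMIs make up 24.2% (IL34LacZ/LacZ) and 50.4% (IL34LacZ/+), and cells with 3 UMIs 15.8% (IL34LacZ/LacZ) and 5.70% (IL34LacZ/+).

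Some other genes had high ratios in these cells. Over all 5970 measured genes 5.14% were past 1.5-fold higher and 0.938% lower. Of 18 measured other SR and SR-related genes 2 were past 1.5-fold, both higher. Pnisr, a serine- and arginine-rich protein, was at 33.8 CPM (IL34LacZ/LacZ) and 14.4 CPM (IL34LacZ/+), a log2 ratio of 1.23 (0.80 to 1.67). Srek1, a splicing regulator, was at 24.9 CPM (IL34LacZ/LacZ) and 15.7 CPM (IL34LacZ/+), a log2 ratio of 0.67 (0.22 to 1.13). Of 5 measured immediate early genes, a class that also responds to cell dissociation, 2 were higher. Fos was at 41.0 CPM (IL34LacZ/LacZ) and 3.18 CPM (IL34LacZ/+), from 158 UMIs (IL34LacZ/LacZ) and 15 UMIs (IL34LacZ/+), and Btg2 was at 17.1 CPM (IL34LacZ/LacZ) and 8.89 CPM (IL34LacZ/+). Pnisr, Srek1, Fos and Btg2 were named after their values were seen. The haemoglobin share of these cells' UMIs was 1.17% (IL34LacZ/LacZ) and 0.549% (IL34LacZ/+), and all 5 erythrocyte markers were detected, summing to 11731 CPM (IL34LacZ/LacZ) and 5496 CPM (IL34LacZ/+). The mitochondrial share was 10.3% (IL34LacZ/LacZ) and 9.13% (IL34LacZ/+), and that of the ribosomal RNA gene Rn18s-rs5 was 1.67% (IL34LacZ/LacZ) and 0.957% (IL34LacZ/+). Their part in the Srsf5 value was not tested.

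Srsf5 ratios in the other classes lay below 0. Endothelial-gated cells had Srsf5 at 217 CPM (IL34LacZ/LacZ) and 246 CPM (IL34LacZ/+), a log2 ratio of −0.18 (−0.37 to 0.01). Oligodendrocyte-gated cells had 183 CPM (IL34LacZ/LacZ) and 197 CPM (IL34LacZ/+), a ratio of −0.11 (−0.26 to 0.04). In these classes the interval included 0. Astrocyte-gated cells had 228 CPM (IL34LacZ/LacZ) and 277 CPM (IL34LacZ/+), a ratio of −0.28 (−0.49 to −0.08). Pericyte-gated cells had 253 CPM (IL34LacZ/LacZ) and 375 CPM (IL34LacZ/+), a ratio of −0.57 (−1.09 to −0.05). Both of these intervals lay below 0, and the difference between classes was not tested.

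In endothelial-gated cells, a sorted type, 0 of 10 members were past 1.5-fold, where 2.48% of 6169 measured genes were higher, 4.6% lower and 7.08% either. Srsf2 was at 182 CPM (IL34LacZ/LacZ) and 149 CPM (IL34LacZ/+), a log2 ratio of 0.30 (0.08 to 0.51). Clk1 had a ratio of −0.27 (−0.45 to −0.10), from the levels given above. The other 8 members had intervals that included 0, and the members' median of −0.05 lay near the −0.01 of all measured genes.

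Astrocyte-gated cells, the other sorted type, had ratios below 0 for 9 of 10 members. Srsf2 was at 112 CPM (IL34LacZ/LacZ, 94.2 to 133) and 170.4 CPM (IL34LacZ/+, 154 to 188), a log2 ratio of −0.60 (−0.89 to −0.32). Clk4 had a ratio of −0.59 (−0.90 to −0.28). These 2 of 10 were past 1.5-fold, both lower, where 3.68% of 5814 measured genes were lower, 1.34% higher and 5.02% either. Both lay just past the threshold, and neither passed with ratios centred on the median of all genes. Srsf1 had a ratio of −0.30 (−0.58 to −0.02), Srsf5 −0.28 (−0.49 to −0.08) and Clk1 −0.26 (−0.46 to −0.06), also with intervals below 0. Srsf11, the 1 member above 0, had 0.07 (−0.19 to 0.33). The members' median was −0.26, beside −0.04 for all measured genes. The ribosomal protein share of astrocyte-gated UMIs was 1.02% (IL34LacZ/LacZ) and 1.16% (IL34LacZ/+), the mitochondrial share was 8.07% (IL34LacZ/LacZ) and 7.06% (IL34LacZ/+), and their part in these ratios was not tested.

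Oligodendrocyte-gated cells, not a sorted type, had 0 of 10 members past 1.5-fold, where 2.7% of 7546 measured genes were, 1.21% higher and 1.5% lower. Srsf1 had the lowest ratio, −0.49 (−0.74 to −0.24), from the levels given above. Clk4 had −0.41 (−0.64 to −0.19), Srsf2 −0.35 (−0.51 to −0.20), Srsf3 −0.24 (−0.39 to −0.09) and Clk1 −0.24 (−0.40 to −0.08), all with intervals below 0. The members' median was −0.18, beside −0.05 for all measured genes. The haemoglobin share of these cells' UMIs was 1.28% (IL34LacZ/LacZ) and 0.214% (IL34LacZ/+), and all 5 erythrocyte markers were detected, summing to 12872 CPM (IL34LacZ/LacZ) and 2147 CPM (IL34LacZ/+). Of 14 measured immediate early genes 5 were past 1.5-fold higher, and of 11 heat shock genes 2 were lower. Their part in these ratios was not tested.

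In pericyte-gated cells only Srsf5 and Clk1 had enough UMIs to be measured and 0 were past 1.5-fold, where 10.8% of 710 genes were, 6.62% higher and 4.23% lower. Clk1 had a ratio of 0.13 (−0.41 to 0.70). Below the UMI limit, Srsf7 was at 93.3 CPM (IL34LacZ/LacZ, 24 UMIs) and 176 CPM (IL34LacZ/+, 30 UMIs) and Srsf11 at 144 CPM (IL34LacZ/LacZ, 37 UMIs) and 252 CPM (IL34LacZ/+, 43 UMIs).

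**Figure D4:**
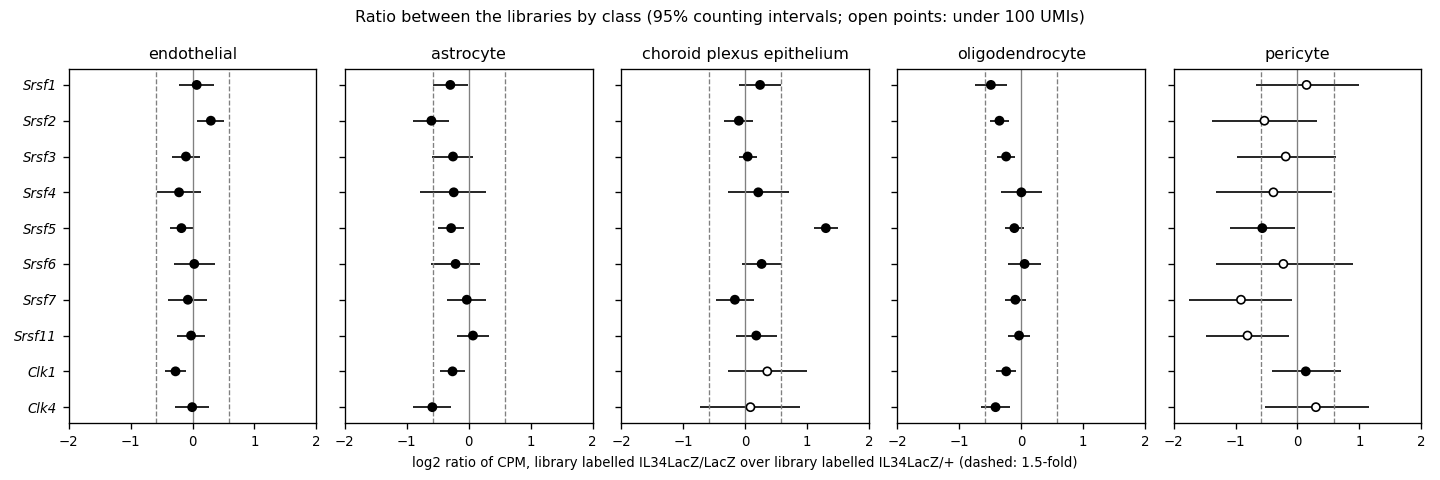
Log2 ratio of CPM for each of the 10 genes, library labelled IL34LacZ/LacZ over library labelled IL34LacZ/+, in the 5 gated classes, with bars for 95% counting intervals; dashed lines mark 1.5-fold and open points have under 100 UMIs. Srsf5 in choroid plexus epithelium lies at 1.31, and Srsf2 and Clk4 in astrocyte-gated cells lie at −0.60 and −0.59.

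Other splicing genes were read in the sorted types beside the shares of all measured genes past 1.5-fold, 7.08% in endothelial-gated and 5.02% in astrocyte-gated cells. Of the other SR and SR-related genes 0 of 19 measured passed in endothelial-gated and 0 of 18 in astrocyte-gated cells. In astrocyte-gated cells Srrm2, a scaffold of nuclear speckles, was at 375 CPM (IL34LacZ/LacZ) and 495 CPM (IL34LacZ/+), a log2 ratio of −0.40 (−0.56 to −0.24). The ratio of Rsrp1 was −0.33 (−0.49 to −0.17) and that of Luc7l, a U1-associated factor, 0.30 (−0.08 to 0.68). In endothelial-gated cells Srsf9 had −0.51 (−1.17 to 0.12), Srrm1 −0.29 (−0.50 to −0.09) and Srrm2 −0.25 (−0.41 to −0.10).

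SR protein kinases and the importer Tnpo3 had 0 of 6 measured genes past 1.5-fold in endothelial-gated and 0 of 7 in astrocyte-gated cells. In endothelial-gated cells Tnpo3 had a ratio of 0.33 (0.09 to 0.57), Srpk1 0.33 (−0.02 to 0.68) and Srpk2 0.31 (0.08 to 0.54). In astrocyte-gated cells Clk2 had −0.56 (−1.05 to −0.09), Dyrk1a 0.41 (0.14 to 0.67) and Tnpo3 0.31 (−0.07 to 0.70). Clk2 thus lay on the same side as Clk1 and Clk4 there, and Dyrk1a on the other.

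The hnRNP proteins, which often oppose SR proteins, had 0 of 25 and 0 of 23 measured genes past 1.5-fold in endothelial- and astrocyte-gated cells. The lowest ratios were those of Hnrnpa0, −0.48, in endothelial-gated cells and of Hnrnph2, −0.58, in astrocyte-gated cells. Of 26 measured core spliceosome genes 1 was higher and 2 lower in endothelial-gated cells: Eftud2 at 0.64, U2af2 at −0.77 and Snrpg at −0.71. In astrocyte-gated cells 0 of 26 were higher and 1, Ddx46, lower, at −0.74. Of the genes of nonsense-mediated decay and the exon junction 1 of 10 was past 1.5-fold in endothelial-gated cells, Rbm8a, at −0.64, and 0 of 7 in astrocyte-gated cells.

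Genes that respond to handling or temperature were read as well. Of 13 measured immediate early genes 5 were lower and 0 higher in endothelial-gated cells, led by Jun at 69.9 CPM (IL34LacZ/LacZ) and 136 CPM (IL34LacZ/+), a ratio of −0.96 (−1.27 to −0.65). In astrocyte-gated cells 0 of 2 passed 1.5-fold. The cold-induced RNA-binding proteins had 1 of 2 lower in each type, Cirbp in endothelial-gated cells at −0.66 (−1.30 to −0.05) and Rbm3 in astrocyte-gated cells at −0.80 (−1.29 to −0.33). Heat shock proteins had 0 of 7 past 1.5-fold in endothelial-gated cells. In astrocyte-gated cells 1 of 6 was higher, Hsp90aa1 at 0.67, and 1 lower, Hspd1 at −0.70. Their part in the members' ratios was not tested.

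The same lists were read by class. Over all 6570 genes, 51.8% were past 1.5-fold lower in choroid plexus epithelium than in endothelial-gated cells in both libraries and 31.6% higher. Of 19 measured other SR and SR-related genes 17 were lower by that rule and 1 higher, with medians of −1.79 (IL34LacZ/LacZ) and −2.02 (IL34LacZ/+). Of 6 SR protein kinase and importer genes 5 were lower and 0 higher. Of 25 hnRNP genes 14 were lower and 5 higher. Of 30 core spliceosome genes 10 were lower and 12 higher, with medians of 0.20 (IL34LacZ/LacZ) and 0.08 (IL34LacZ/+). Of 11 genes of nonsense-mediated decay and the exon junction 7 were lower and 3 higher. Of 10 immediate early genes 9 were lower and 1 higher, of 10 heat shock genes 1 was lower and 8 higher, and of 2 cold-induced genes 0 were lower and 1 higher. No test of lists was made.

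The genes most like the kinases over the classes were found by Pearson correlation over 10 points, 5 classes in 2 libraries, among 1894 genes with at least 20 CPM at each point. For Clk1 and Clk4 summed they were Rbm5, Acin1, Zfr, Nktr and Ppp3ca, each at 0.99. Rbm5, an RNA-binding regulator of splicing, was at 22.3 CPM (IL34LacZ/LacZ) and 24.6 CPM (IL34LacZ/+) in choroid plexus epithelium-gated and 234 CPM (IL34LacZ/LacZ) and 219.6 CPM (IL34LacZ/+) in endothelial-gated cells. Nktr, a cyclophilin with an arginine- and serine-rich region, was at 39.5 CPM (IL34LacZ/LacZ) and 25.4 CPM (IL34LacZ/+) in choroid plexus epithelium-gated and 244 CPM (IL34LacZ/LacZ) and 263 CPM (IL34LacZ/+) in endothelial-gated cells. For the 8 Srsf genes summed they were Sbno1, Trip11, Kdm1a, Chm and Cnot3, each at 0.96. The points share 2 libraries and their low choroid plexus values, so the correlations are a description.

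All 10 genes have annotated transcripts that retain an intron and others marked for nonsense-mediated decay, which 3′ counts do not tell from coding transcripts. The last 400 bases of the 10 genes had no near-identical copy in the annotated transcripts, at 95% identity over at least 200 bases. A930004J17Rik overlaps Srsf4, and Gm43362 overlaps Srsf11, on the same strand.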

How the data were processed

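The deposited tables hold counts of UMIs for each gene in each barcode, which per the file headers came from Cell Ranger 7.1.0. Libraries were 10x 3′ version 3.1, per the labels' protocols, and the build was mm10, that is GRCm38.p6, according to the submitters' processing notes. Whether intron reads were counted is unknown from these sources. The library labelled IL34LacZ/LacZ held 36696941 UMIs in 5400 barcodes, and the library labelled IL34LacZ/+ held 26679053 UMIs in 3901 barcodes.

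Barcodes were kept from 1000 UMIs and 500 genes upwards if mitochondrial genes took no more than 15% of UMIs. Of the barcodes with enough UMIs and genes, the mitochondrial limit removed 696 of 1871 labelled IL34LacZ/LacZ and 458 of 2126 labelled IL34LacZ/+. The barcodes kept were 1175 labelled IL34LacZ/LacZ and 1668 labelled IL34LacZ/+. Scrublet, run per library in scanpy 1.11.5, marked 8 and 22 of them as doublets, which were removed. A cell joined the class with most marker UMIs where at least 3 of its markers were detected and it led the next class at least 3-fold. Erythrocyte-gated barcodes had at least 50% haemoglobin UMIs, and 113 cells labelled IL34LacZ/LacZ and 143 labelled IL34LacZ/+ stayed ungated. No annotation of cells by the authors was used here.

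Counts were summed per class and library and given as CPM (counts per 1e6 UMIs of the class) with exact Poisson intervals. Ratios carry exact conditional binomial intervals and shares Clopper-Pearson intervals (numpy 2.4.6, scipy 1.17.1), and the computation was tested on simulated data. Gene positions are from GENCODE M21. Nuclear-retained RNAs were not analysed here. Named genes were the 10 members, up to 3 genes per list with the largest absolute log2 ratio in endothelial-gated and in astrocyte-gated cells, and the 5 genes most alike in pattern, and others are marked where named. The members and lists were chosen with earlier results of these data known.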

Additional observations from a re-analysis of the deposited data

Results flagged for a closer look

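Srsf5 and Srsf2 had library ratios in opposite directions in different classes. The log2 ratio of Srsf5, library labelled IL34LacZ/LacZ over library labelled IL34LacZ/+, was 1.31 in choroid plexus epithelium-gated cells but −0.28 in astrocyte-gated and −0.57 in pericyte-gated cells, with counting intervals that exclude 0 in each. The ratio of Srsf2 was −0.60 in astrocyte-gated cells and 0.30 in endothelial-gated cells, again with intervals that exclude 0. With 1 library per genotype the differences between classes were not tested.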

How the results depend on the processing

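No paired analysis was possible because there was 1 library per genotype. Of 650 recomputed log2 ratios of the members 15 left the counting interval of the reported value and 44 changed sign. None of the members past 1.5-fold changed sign, but Srsf2 in choroid plexus epithelium, reported at −0.10, was at 0.65 after thinning to 2000 UMIs, and Srsf3 in pericyte-gated cells, reported at −0.19 on under 100 UMIs, was at 0.86. Srsf5 in choroid plexus epithelium passed in all 13 alternatives, at log2 1.20 to 1.45. In endothelial-gated cells the count of members past 1.5-fold stayed at 0. In astrocyte-gated cells the count of 2 became 1 with at most 10% mitochondrial UMIs, with no mitochondrial limit, with marked doublets kept, with mitochondrial, ribosomal protein and haemoglobin UMIs out of the total, with the mean of per-cell CPM, and without Rn18s-rs5. It was 0 with centred ratios and 0 at 2-fold. In oligodendrocyte-gated cells it was 1 (Clk1) after thinning to 2000 UMIs. In pericyte-gated cells it was 1 (Srsf5) at 2000 UMIs per cell, 1 with at most 10% mitochondrial UMIs, 1 with centred ratios and 2 with no minimum of UMIs. The cause of these changes was not tested.

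The log2 difference of the summed kinases between choroid plexus epithelium and endothelial cells was −3.83 with at most 10% mitochondrial UMIs, −4.71 by the mean of per-cell CPM, −5.09 after dropping the top 2% of cells by a gene's level and −3.88 without Ttr in the library labelled IL34LacZ/LacZ. In the library labelled IL34LacZ/+ it was −5.21 without those cells and −4.24 without Ttr. The settings without Ttr, without Rn18s-rs5 and without a gene's highest cell were chosen after seeing the data. Without its highest barcode Srsf4, Clk4, Srsf7 and Srsf11 in erythrocyte-gated barcodes labelled IL34LacZ/+ were at 0, 0, 11.8 and 15.7 CPM. Taking mitochondrial, ribosomal protein and haemoglobin UMIs out of the total raised the members' levels by a median of 0.13 on the log2 scale. Of 45 list counts recomputed 39 were equal. A split by the share of Malat1 was planned but not run.

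Summed kinase levels in choroid plexus rest on 71 UMIs labelled IL34LacZ/LacZ and 73 labelled IL34LacZ/+, which limits their precision.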
